A study of Zea mays with 6 samples.

Results

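Transcripts of 6 transcription factors that direct storage filling of the maize endosperm were followed in whole kernels at 10 days after pollination: O2 (Zm00001d018971), PBF1 (Zm00001d005100), NAC128 (Zm00001d040189), NAC130 (Zm00001d008403), O11 (Zm00001d003677) and ABI19 (Zm00001d011712). The genes were chosen by ID as known regulators, with earlier results of these data known, and all 6 were among the 33051 genes listed in each library. The files give IDs without names, so the names are those supplied with the gene set. The series holds 3 kernel libraries labelled T, from a single transgenic strain made to overexpress the sucrose synthase gene ZmSUS1, and 3 labelled CK, from its non-transgenic negative control. All 6 come from the inbred line KN5585, and within a group they are described as biological replicates. The transgene's promoter is not stated in the sources used here.

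O2 (Opaque2) is a bZIP factor that activates alpha-zein and other storage genes of the endosperm, the tissue that fills with starch and with the storage proteins called zeins. PBF1 is a DOF factor that binds the prolamin box of zein promoters and acts together with O2. NAC128 and NAC130 are closely related NAC factors that act on zein and starch synthesis genes. O11 (Opaque11) is a bHLH factor and ABI19 a B3-domain factor, and both are known as upstream activators of O2 and PBF1.

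Values are FPKM, which divides the fragments of a gene by its length and by the library's total of mapped fragments. Summed FPKM was 1359751 to 1378937 per library, and 20147 to 20776 genes reached 1 FPKM. SUS1 (Zm00001d047253), the targeted gene, went against the labels. It had 155, 149 and 160 FPKM in the libraries labelled T 1 to 3, against 214, 210 and 221 FPKM in those labelled CK 1 to 3. The groups are therefore named by their labels throughout, and every direction below rests on those labels. Of 20514 genes averaging at least 1 FPKM, 19.0% passed the test between the groups (limma, Benjamini-Hochberg adjusted p under 0.05), 2.88% higher and 16.2% lower in the libraries labelled T. The median tested gene had a log2 fold change of -0.13. The 20 most abundant genes took 62.2% to 63.6% of summed FPKM in the libraries labelled T, against 57.2% to 59.5% in those labelled CK. Rescaling by the median ratio of genes brought that median to 0.00067. After it 6.29% of genes passed as higher and 7.36% as lower, so that 46.1% of the calls were higher, against 15.1% on deposited values. The group difference of each regulator is therefore given on both scales.

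The endosperm regulators did not move together. In the libraries labelled T, O2 fell by 28.9% of its mean in those labelled CK. PBF1 and NAC128 rose, with means 17.2% and 16.7% higher. NAC130, O11 and ABI19 did not pass the test on deposited values, and their means were 1.10, 0.935 and 0.825 times those in the libraries labelled CK. Of the 6 genes, all of them tested, 2 rose, 1 fell and 3 did not pass, with a median log2 fold change of 0.025. Over all tested genes 2.88% passed as higher and 16.2% as lower, with a median of -0.13. With median-ratio rescaling NAC130 also rose, so that 3 rose and 1 fell, with a median of 0.17. Over all tested genes 6.29% then passed as higher and 7.36% as lower, with a median of 0.00067. In bulk kernels, fewer cells of a type and less RNA per cell cannot be told apart.

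**Figure D1:**
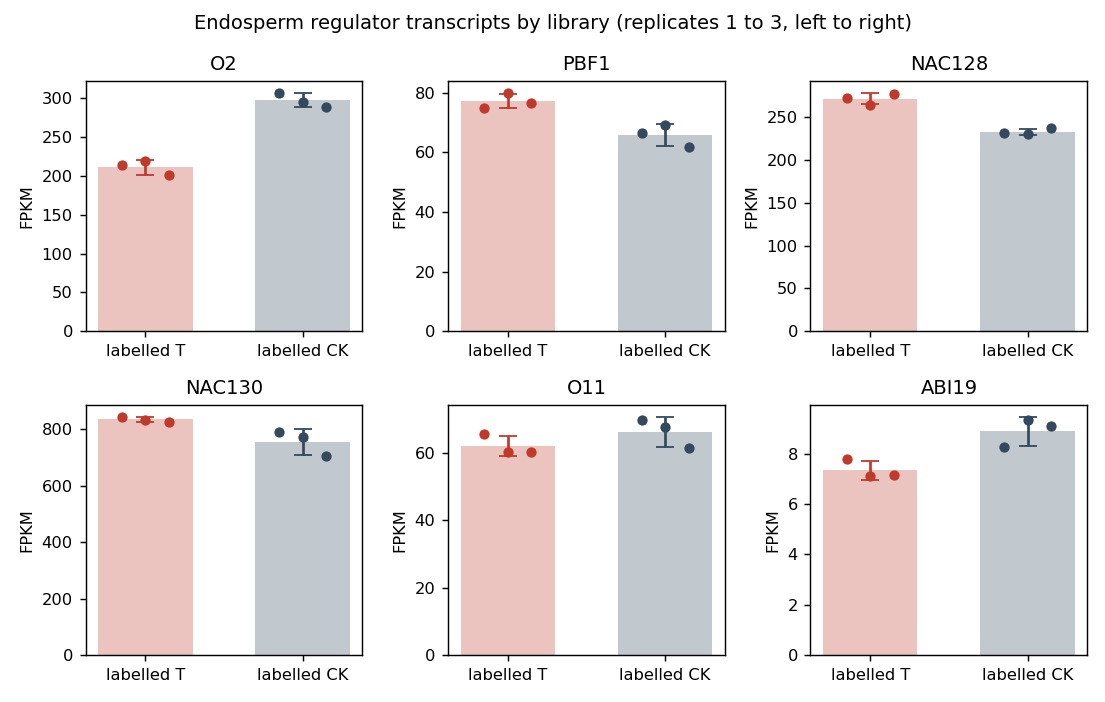
FPKM of the 6 regulators in each library (y axes start at 0), with the libraries labelled T on the left and those labelled CK on the right. Points are replicates 1 to 3, bars are means and error bars are SD (n = 3 each). O2 and ABI19 are lower in all 3 libraries labelled T, PBF1, NAC128 and NAC130 are higher in all 3, and the O11 groups overlap.

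O2 had 215, 219 and 201 FPKM in the libraries labelled T 1 to 3, against 307, 296 and 289 FPKM in those labelled CK 1 to 3. Every library labelled T lay below every library labelled CK, with a gap of 23.7% of the mean in the libraries labelled CK. The means were 211 ± 9.57 FPKM in the libraries labelled T and 297 ± 8.90 FPKM in those labelled CK (SD, n = 3 each). On the log2(FPKM + 1) scale, used for all fold changes here, the difference was -0.49 ± 0.053 (SE, limma adjusted p = 0.000837). With median-ratio rescaling it was -0.34 ± 0.048 (SE, limma adjusted p = 0.00312). O2 passed the test, and was lower, under all 19 alternative settings, those that leave out single libraries included. Of all tested genes 8.99% had a lower log2 fold change, and of the 618 genes at a mean of 100 to 1000 FPKM 12.0% did. In that range of levels 32.5% of genes passed as lower. SUS1 lay close to O2, at 0.719 of its level in the libraries labelled CK, against 0.711 for O2.

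PBF1, the DOF partner of O2 on zein promoters, had 75.1, 79.97 and 76.7 FPKM in the libraries labelled T 1 to 3, against 66.6, 69.2 and 62.0 FPKM in those labelled CK 1 to 3. The groups did not overlap, and their gap was 8.89% of the mean in the libraries labelled CK. The log2 fold change was 0.23 ± 0.061 (SE, limma adjusted p = 0.0354), and 0.37 after median-ratio rescaling (limma, adjusted p = 0.00412). On deposited values the call was lost whenever any 1 of the 6 libraries was left out, with adjusted p from 0.0528 without CK 2 to 0.116 without T 2 (limma). It was also lost when the variance prior had no mean trend (limma, adjusted p = 0.0918). Among the 7725 genes averaging 10 to 100 FPKM, 3.12% passed as higher, and 4.84% had a higher log2 fold change than PBF1.

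NAC128 had 273, 265 and 278 FPKM in the libraries labelled T 1 to 3, against 232, 230 and 237 FPKM in those labelled CK 1 to 3. The groups were tight, with a coefficient of variation of 2.47% in the libraries labelled T and 1.57% in those labelled CK, and did not overlap. The log2 fold change was 0.22 ± 0.046 (SE, limma adjusted p = 0.0138), and 0.37 after median-ratio rescaling (limma, adjusted p = 0.00224). On deposited values the call was lost without CK 1 (limma, adjusted p = 0.0510), without CK 2 (limma, adjusted p = 0.0599) and with a variance prior that had no mean trend (limma, adjusted p = 0.0724). Of the 618 genes at a mean of 100 to 1000 FPKM, 4.69% passed as higher, and 4.53% had a higher log2 fold change than NAC128.

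NAC130, the paralog of NAC128, was the most abundant of the 6 in every library. It had 846, 833 and 828 FPKM in the libraries labelled T 1 to 3, against 792, 773 and 704 FPKM in those labelled CK 1 to 3. The groups did not overlap, and CK 3 lay lowest. Its log2 fold change of 0.15 had a 95% interval for this gene alone of 0.017 to 0.27 (limma, adjusted p = 0.105). With the replicate number as a block it passed (limma, adjusted p = 0.0349), and after median-ratio rescaling at a log2 fold change of 0.29 ± 0.047 (SE, limma adjusted p = 0.00553). The authors' treatment of reads shared by NAC128 and NAC130 is not given, so their sum was also compared. The sum was 1119, 1097 and 1106 FPKM in the libraries labelled T 1 to 3, against 1023, 1003 and 942 FPKM in those labelled CK 1 to 3. The sums did not overlap, and their means were 1107 ± 10.8 FPKM in the libraries labelled T and 989 ± 42.5 FPKM in those labelled CK (SD, n = 3 each). The log2 ratio of these means was 0.16 on deposited values and 0.31 after median-ratio rescaling.

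O11, which acts upstream of O2, had 65.5, 60.2 and 60.3 FPKM in the libraries labelled T 1 to 3, against 69.8, 67.8 and 61.3 FPKM in those labelled CK 1 to 3. The groups overlapped, since T 1 lay above CK 3. The log2 fold change of -0.094 had a 95% interval of -0.25 to 0.062 (limma, adjusted p = 0.367), and its sign turned with median-ratio rescaling, to 0.052 with a 95% interval of -0.088 to 0.19 (limma, adjusted p = 0.630). A log2 change of the size seen in O2 lies outside both intervals.

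ABI19, the other upstream factor, was the least abundant member. It had 7.78, 7.10 and 7.15 FPKM in the libraries labelled T 1 to 3, against 8.25, 9.34 and 9.11 FPKM in those labelled CK 1 to 3. These values did not overlap, but after median-ratio rescaling T 1 (8.13 FPKM) lay above CK 1 (7.67 FPKM). Its log2 fold change of -0.25 had a 95% interval for this gene alone of -0.45 to -0.047 (limma, adjusted p = 0.0827). Rescaled, it was -0.11 with an interval of -0.32 to 0.091 (limma, adjusted p = 0.453). As for O11, the O2 change on the same scale (-0.49 deposited, -0.34 rescaled) lies outside each interval, here only just. Whether O11 or ABI19 bears on the level of O2 was not tested. ABI19 passed under none of its 19 alternative settings.

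**Figure D2:**
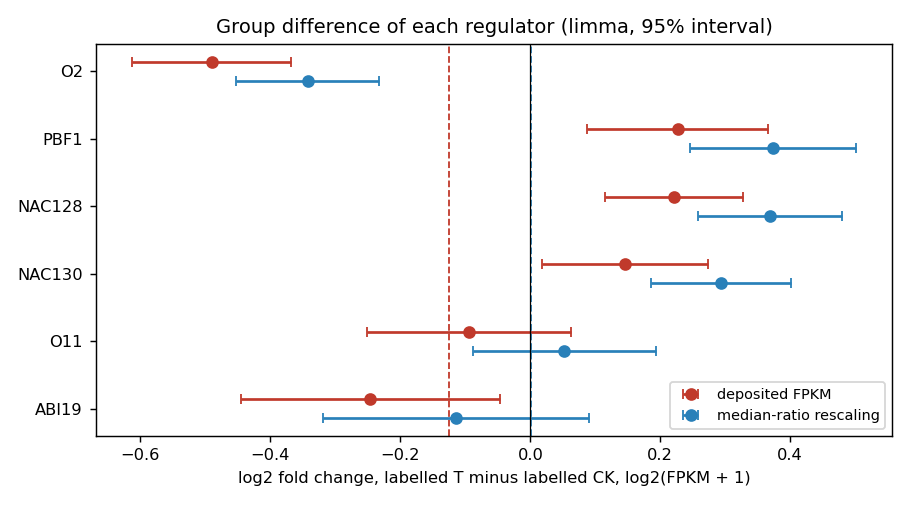
Log2 fold change of each regulator, labelled T minus labelled CK (x axis, log2(FPKM + 1) scale), from limma on deposited FPKM (red) and after median-ratio rescaling (blue). Bars are 95% intervals for each gene alone and dashed lines mark the median of all 20514 tested genes. O2 and ABI19 lie left of 0 on both scales, with a rescaled ABI19 interval that spans 0. PBF1, NAC128 and NAC130 lie right of 0 on both, and O11 changes sign.

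Across the 6 genes, 5 had groups that did not overlap on deposited values and 4 after median-ratio rescaling. The same held for 38.9% of all tested genes on deposited values and 33.9% after rescaling, so a lack of overlap alone was common in these libraries. The rises were the rarer direction on deposited values: PBF1 and NAC128 were among the 2.88% of genes that passed as higher, while O2 was among the 16.2% that passed as lower. Of all tested genes, 8.01% had a higher log2 fold change than PBF1 and 8.24% a higher one than NAC128. These shares were 6.93% and 7.09% after rescaling.

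**Figure D3:**
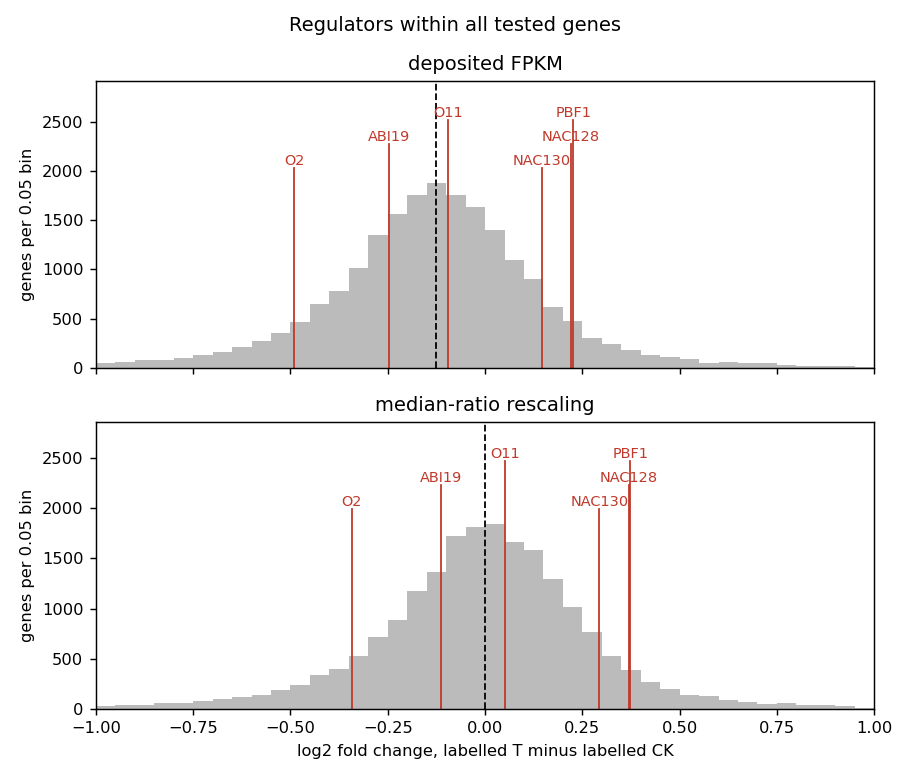
Distribution of log2 fold changes, labelled T minus labelled CK, over all tested genes (x axis from -1 to 1, y axis genes per bin of 0.05), on deposited FPKM (top) and after median-ratio rescaling (bottom). Red lines mark the 6 regulators at staggered heights for legibility, and the dashed line marks the median gene. O2 sits in the lower flank, with PBF1, NAC128 and NAC130 in the upper flank, on both scales. ABI19 lies between O2 and the median gene on both scales.

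FPKM is per length, so levels of different genes are set side by side here. The annotation and the treatment of reads shared by NAC128 and NAC130 are not given, so such an order is approximate. The order of 2 genes within a library does not depend on how that library was scaled. In all 3 libraries labelled T the order was NAC130, NAC128, O2, PBF1, O11 and ABI19. In all 3 libraries labelled CK NAC130 came first, O2 stood above NAC128, and ABI19 came last, so the places of O2 and NAC128 differed between the groups. PBF1 and O11 were neighbours that did not separate in the libraries labelled CK, where O11 was higher in CK 1 and PBF1 in CK 2 and CK 3. By mean FPKM over all listed genes, O2 ranked 250 in the libraries labelled T and 201 in those labelled CK. NAC128 ranked 187 and NAC130 ranked 75 in the libraries labelled T, against 253 and 90 in those labelled CK.

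Ratios within a library do not depend on any scaling factor, but they do not show which of the 2 genes differed. They are given with no test. O2 over PBF1 was 2.86, 2.74 and 2.62 in the libraries labelled T 1 to 3, against 4.61, 4.27 and 4.67 in those labelled CK 1 to 3. The mean ratios were 2.74 ± 0.122 in the libraries labelled T and 4.52 ± 0.214 in those labelled CK (SD, n = 3 each), a log2 difference of -0.72. NAC128 over O2 was 1.27, 1.21 and 1.39 in the libraries labelled T 1 to 3, against 0.756, 0.778 and 0.820 in those labelled CK 1 to 3. The groups did not overlap in either ratio, and the ratio of NAC128 to O2 lay on opposite sides of 1. NAC128 over O2 was not among the planned ratios. Both ratios set O2 against a gene that rose, so their lack of overlap is no separate support. O11 over O2 averaged 0.293 ± 0.0163 in the libraries labelled T and 0.223 ± 0.00952 in those labelled CK (SD, n = 3 each), again without overlap. ABI19 over O2 averaged 0.0348 ± 0.00205 in the libraries labelled T and 0.02998 ± 0.00269 in those labelled CK (SD, n = 3 each), and the nearest libraries, T 2 at 0.0324 and CK 2 at 0.0316, almost met. NAC128 over NAC130 overlapped, at 0.318 to 0.336 in the libraries labelled T and 0.293 to 0.337 in those labelled CK.

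**Figure D4:**
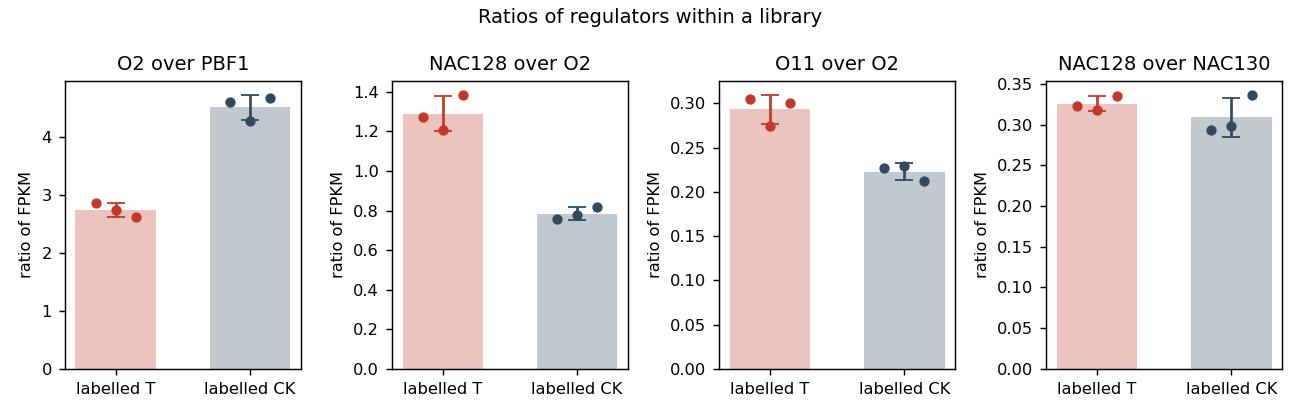
Ratios of FPKM between pairs of regulators within a library (y axes start at 0), libraries labelled T on the left and labelled CK on the right. Points are replicates 1 to 3, bars are means and error bars are SD (n = 3 each). O2 over PBF1 is lower and NAC128 over O2 and O11 over O2 are higher in all 3 libraries labelled T, while NAC128 over NAC130 overlaps. NAC128 over O2 was not among the planned ratios, and the planned ABI19 over O2 is not shown.

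As a share of the 6 transcripts summed, O2 made up 14.4 ± 0.569% in the libraries labelled T and 20.8 ± 0.379% in those labelled CK (SD, n = 3 each). NAC130 made up 57.0 ± 0.103% in the libraries labelled T and 52.9 ± 1.10% in those labelled CK (SD, n = 3 each). NAC128 made up 18.6 ± 0.546% in the libraries labelled T and 16.4 ± 0.914% in those labelled CK (SD, n = 3 each). The sum itself was 1451 to 1482 FPKM in the libraries labelled T and 1363 to 1475 FPKM in those labelled CK, and the groups overlapped. After median-ratio rescaling it was 1528 to 1548 FPKM in the libraries labelled T and 1315 to 1372 FPKM in those labelled CK, without overlap. The shares do not depend on that scaling. They are parts of a whole, so a lower O2 by itself raises the shares of the other genes, and the shares are not separate results.

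Alpha-zein genes are known targets of O2, PBF1 and the NAC factors, and 2 blocks of nearby IDs were taken as alpha-zein tandem clusters. The files do not annotate them, and copies in a cluster may share reads, so sums were compared. The lower-numbered block, 10 listed IDs from Zm00001d048806 to Zm00001d048817, summed to 208967, 210973 and 222779 FPKM in the libraries labelled T 1 to 3, against 178770, 186511 and 199128 FPKM in those labelled CK 1 to 3. The sums did not overlap, in the direction opposite to O2, with an exact permutation p of 0.1 (2-sided, n = 3 each), the smallest that 3 against 3 libraries allow. The block took 15.2% to 16.4% of summed FPKM in the libraries labelled T and 13.1% to 14.6% in those labelled CK, and the part of this share in the lower FPKM of other genes was not tested. In the lower-numbered block 3 IDs rose (Zm00001d048808, Zm00001d048810 and Zm00001d048816) and 1 fell, Zm00001d048814, which stood at only 3.82 FPKM in the libraries labelled T and 7.21 FPKM in those labelled CK. Over all tested genes 2.88% passed as higher and 16.2% as lower. These IDs are named after their values were seen. Median-ratio rescaling left 5 IDs of the block higher and 1 lower by the limma test, where 6.29% of all tested genes passed as higher and 7.36% as lower. The median log2 fold change of all 10 IDs of the block on deposited values was 0.22, against -0.13 over all tested genes. The higher-numbered block, 6 IDs from Zm00001d048847 to Zm00001d048852, summed to 136350, 141365 and 141024 FPKM in the libraries labelled T 1 to 3, against 140737, 141743 and 145147 FPKM in those labelled CK 1 to 3. These sums overlapped (exact permutation test without pairing, p = 0.3, 2-sided, n = 3 each), although the library labelled T was the lower of the same-numbered pair in 3 of 3 pairs. After median-ratio rescaling it was the lower in 0 of 3 pairs, and the sums did not overlap, at 142413 to 148601 in the libraries labelled T and 130868 to 139939 in those labelled CK. The log2 ratio of the means was -0.030 on deposited values and 0.12 after rescaling. With limma 0 of the 6 IDs passed on either scale (0 on deposited values and 1 after rescaling at an unadjusted p under 0.05), and their median log2 fold change on deposited values was -0.047.

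**Figure D5:**
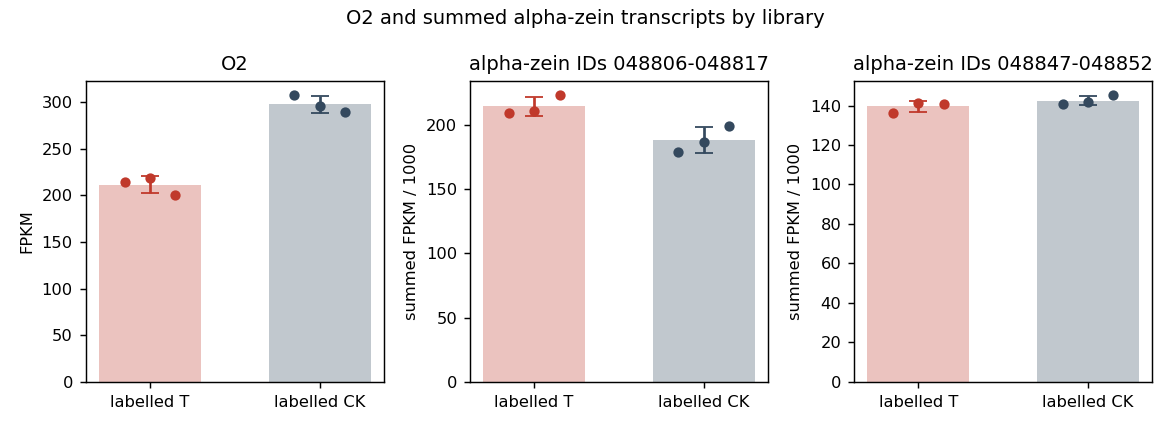
FPKM of O2 and summed FPKM (axis in units of 1000) of the 2 blocks of alpha-zein IDs (y axes start at 0), libraries labelled T on the left and labelled CK on the right. Points are replicates 1 to 3, bars are means and error bars are SD (n = 3 each). O2 is lower and the sum over the lower-numbered block (middle) is higher in all 3 libraries labelled T, and the sums over the higher-numbered block (right) overlap on these deposited values.

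Likeness of profile was measured as the root mean square difference between log2(FPKM + 1) values of 2 genes over the 6 libraries, each centred on its own mean. Among the 6 regulators PBF1 and NAC130 were closest, at 0.059, and O2 was farthest from PBF1 and from NAC128, at 0.36 for each. NAC128 differed from PBF1 by 0.074 and from NAC130 by 0.077. O2 was nearest to ABI19, at 0.15. Among 8407 other genes averaging 10 FPKM or more, the profile nearest to O2 was that of Zm00001d046682, at 0.029, which averaged 30.8 FPKM in the libraries labelled T and 44.3 FPKM in those labelled CK. The profile nearest to PBF1 was that of Zm00001d049099, at 0.025, which averaged 621 FPKM in the libraries labelled T and 534 FPKM in those labelled CK. The nearest to NAC128 was Zm00001d031017, at 0.012, and the nearest to O11 was Zm00001d000135, also at 0.012. These genes were picked for their likeness on deposited FPKM over the same libraries, so their group differences are a description, with no test. Of the 8407 genes compared, 49 lay within 0.05 of O2, 31 of PBF1, 70 of NAC128 and 170 of O11, so no nearest profile stood alone.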

How the data were processed

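Messenger RNA of whole kernels was sequenced in 6 libraries, grouped and numbered by the sample titles. Per the file headers the authors deposited FPKM, 1 table for each library with 2 decimals. Aligner, counting, strand setting, build and annotation are not stated in the sources used here, and the submitters' processing notes name DESeq2 without a role. FPKM divides by the library total, so a gene also moves when abundant genes take a larger part of it. Total fragments are not given, and no counting interval was computed. For genes averaging 1 to 3 FPKM, the most frequent ratio between a library and control library 1, searched only near 1, gave relative depths of 1.00 to 1.02 (1.015 for T 1). This takes such values to move in steps of single fragments, which was not tested.

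The 2 groups were compared on log2(FPKM + 1) with limma 3.58.1 (R 4.3.3), over genes averaging at least 1 FPKM, with a mean trend, no covariate, 2-sided and Benjamini-Hochberg adjusted over all tested genes at a threshold of 0.05. The pseudocount of 1 understates the change of low genes. The limma p-values set the group difference against the spread between libraries within a group, moderated over all tested genes. They cover a single transgenic strain and its control, so differences between transgenic strains are not measured. Alternatives changed the pseudocount, filter, scaling, variance prior, sample weights, threshold, replicate block and libraries used. Across genes, deviations from the group mean correlated between same-numbered libraries at 0.135, 0.122 and 0.325. Only replicate 3 stood apart, since T 1 with CK 2 (0.105) and T 2 with CK 1 (0.0846) correlated nearly as well. Whether the numbers pair the libraries is therefore not settled. The main fit did not use them, and with the replicate block 3 of the 6 regulators passed as higher and 1 as lower. In that fit 716 of all 20514 tested genes passed as higher and 3753 as lower, against 591 and 3316 in the main fit.

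The regulators, the alpha-zein ID blocks and the profile rule (the nearest gene to O2, PBF1, NAC128 and O11) were chosen with earlier results of these data known. A RefSeq gene table for Zm-B73-REFERENCE-NAM-5.0 matched 0 of the 32852 nuclear IDs, so lists of embryo, aleurone, starch and other zein genes, set by symbol, were not used. No coordinates or sequences are given.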

Additional observations from a re-analysis of the deposited data

How the results depend on the processing

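The 6 regulators and the count of called genes each had 19 alternatives, all planned except median-ratio rescaling with the replicate block, which was chosen after seeing the data. O2 (log2 fold change from -0.52 to -0.30) kept its direction and its call under all of them. ABI19 (-0.29 to -0.098) stayed lower and without a call under all of them. PBF1 stayed higher but lost its call without a mean trend (0.23), at an adjusted p of 0.01 (0.23), without replicate 3 of both groups (0.19) and without each single library (0.18 to 0.26). NAC128 stayed higher but lost its call without a mean trend (0.22), at an adjusted p of 0.01 (0.22) and without CK 1 or CK 2 (0.21 to 0.24 over all single libraries). NAC130 gained a call with median-ratio rescaling (0.29, also with the replicate block), quantile normalization (0.38), rescaling to the sum without the 20 most abundant (top 20) genes (0.31) and the replicate block on deposited values (0.15). The replicate block changed no other call of the 6 regulators. O11, never called, turned positive with median-ratio rescaling (0.052, also with the replicate block), quantile normalization (0.054) and rescaling to the sum without the top 20 genes (0.070). The count of called genes, 3907, became 1591 at an adjusted p of 0.01 and 2331 to 3316 when single libraries were left out. It fell by over 1.5 times without CK 1 (2331), without CK 2 (2345) and without T 2 (2470), in fits with fewer samples. The log2 ratio of the sums over the lower-numbered alpha-zein block, 0.19, became 0.34 with median-ratio rescaling and 0.35 with rescaling to the sum without the top 20 genes. That over the higher-numbered block, -0.030, turned to 0.12 and 0.14 under these scalings. They put the median log2 fold change of all tested genes at 0.00067 and 0.015. Why the sign turned was not tested. Without known fragment totals, the precision of the low ABI19 values cannot be given from counting.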
